A study of Mus musculus with 3 samples.

Results

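The vascular endothelial growth factor (VEGF) family is described here in single cells of the mouse iridocorneal angle and limbus, the ring of tissue in which aqueous humor leaves the eye. Its members were taken by gene symbol from the deposited matrices and not by a cutoff on measured values, though earlier results of these data were known. They are 4 ligands (*Vegfa*, *Vegfb*, *Vegfc* and *Pgf*), 3 receptor tyrosine kinases (*Flt1*, *Kdr* and *Flt4*) and 2 neuropilins (*Nrp1* and *Nrp2*), which makes 9 of 31053 genes. Transcripts were counted as unique molecular identifiers (UMIs) in 3 libraries made from droplets, of which 2 came from controls, with the third made from *Angpt1*ΔNC mice. All mice carried floxed *Angpt1* alleles (Angpt1 flox/flox), and *Angpt1*ΔNC mice also carried Wnt1Cre+, a Cre transgene driven by *Wnt1* that deletes the gene in derivatives of the neural crest. The animals were 6 weeks old, of a mixed strain bred onto ICR for albino offspring, and each library was 1 pool of 4 to 6 eyes from 2 to 3 mice. With 1 pool of mutant eyes, the p-values below measure only the spread between the control pools.

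VEGF ligands are secreted dimers that signal to endothelial cells. VEGFA acts mainly through KDR (VEGFR2), the chief driver of vessel growth, while FLT1 (VEGFR1) binds VEGFA, VEGFB and PGF tightly and often serves as a decoy. VEGFC acts on FLT4 (VEGFR3), the receptor of lymphatic growth, and neuropilins are co-receptors that also bind class 3 semaphorins. In this tissue the family is of interest because Schlemm's canal (SC), the vessel that drains aqueous humor, is a hybrid of blood and lymphatic endothelium, and because neural crest derived cells around it make ANGPT1, a ligand of the TEK receptor.

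Deposited labels were used as given: SC, LEC (lymphatic endothelium), EC2 to EC4 (blood vessel endothelium), TM1 to TM11 (trabecular meshwork and nearby stroma), and numbered clusters for all other cells. The libraries held 9076, 10160 and 6772 kept cells (control replicate 1, control replicate 2 and *Angpt1*ΔNC, an order kept throughout), with medians of 6329.5, 6393.5 and 7444 UMIs per cell, and 13 to 25 cell barcodes were shared by any pair of libraries. *Angpt1*, the targeted gene, stood at 1.34, 1.14 and 0.00898 UMIs per 10,000 in TM stroma and at 0.494, 0.388 and 0 in mural cells. The pools are described as mixed in sex, yet *Xist*, the RNA of the inactive X chromosome, gave 3, 2 and 43346 UMIs, so the sex of the cells and the genotype cannot be told apart in full. Summed levels of the 5 endothelial marker genes lay between 41.1 and 96.0 UMIs per 10,000 in SC, LEC and EC2 to EC4. They were at or under 0.445 in TM stroma, mural cells, epithelium and ciliary epithelium, each taken as a whole. Some single labels ran higher, among them TM9 (0.0488, 0.0909 and 1.79) and cluster 2 (0.197, 2.22 and 0.0666). Cluster 18, the leading label of *Vegfa*, stood above both of these in control replicate 1.

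The genes lie on 7 chromosomes of GRCm38 (GENCODE M21, whole gene with exons and introns). The ligands are *Vegfa* at chr17:46016993-46032369, *Vegfb* at chr19:6982473-6987651 and *Pgf* at chr12:85166635-85177790, all on the minus strand, and *Vegfc* at chr8:54077606-54187096 on the plus strand. *Flt1* (chr5:147561604-147726011) and *Kdr* (chr5:75932827-75978458) share a chromosome and the minus strand. *Flt4* (chr11:49609263-49652739), *Nrp1* (chr8:128358604-128503363) and *Nrp2* (chr1:62703285-62818695) are on the plus strand. All 9 matched the RefSeq promoter table of GRCm38.p6, in which *Vegfa* and *Pgf* have more than 1 start. The 250 bases before the start are printed for the genes whose windows held the rarer motifs searched, *Vegfb* (highest in pigment cells) and *Flt1* (highest in blood vessel endothelium), each 5′ to 3′ on the minus strand. Capitals mark an M-box (TCATGTG, here as its reverse complement; the motif of MITF, the master factor of pigment cells) in *Vegfb*, from chr19:6987652-6987901, and a cAMP response element (CRE, TGACGTCA, a palindrome) in *Flt1*, from chr5:147726012-147726261.
Vegfb: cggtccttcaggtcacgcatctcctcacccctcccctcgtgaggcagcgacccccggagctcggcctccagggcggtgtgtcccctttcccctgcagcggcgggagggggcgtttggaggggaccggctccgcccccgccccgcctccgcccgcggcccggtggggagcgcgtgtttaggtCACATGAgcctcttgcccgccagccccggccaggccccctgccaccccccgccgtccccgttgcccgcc
Flt1: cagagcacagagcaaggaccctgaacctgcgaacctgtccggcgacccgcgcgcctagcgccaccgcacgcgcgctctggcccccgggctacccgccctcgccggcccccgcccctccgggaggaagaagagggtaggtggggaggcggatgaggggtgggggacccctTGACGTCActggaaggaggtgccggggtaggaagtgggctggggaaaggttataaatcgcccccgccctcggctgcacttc
The M-box began 69 bases before the *Vegfb* start, and 3.25% of the 32851 promoter windows of this length held it on either strand. The CRE began 81 bases before the *Flt1* start and was held by 1.55% of windows. No other member's window held either motif. The core of the HIF site (ACGTG, in 16.6% of windows) was found in the second *Vegfa* window alone. That window, chr17:46025164-46025413, lies within the gene and overlaps 9 annotated exons. The GC box (GGGCGG, in 32.7%) was found in 10 of the 11 windows. Of the 9 members, 5 had a window free of annotated exons. The printed M-box and CRE overlap no other motif searched, and a match of letters does not show that a factor binds there.

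**Figure D1:**
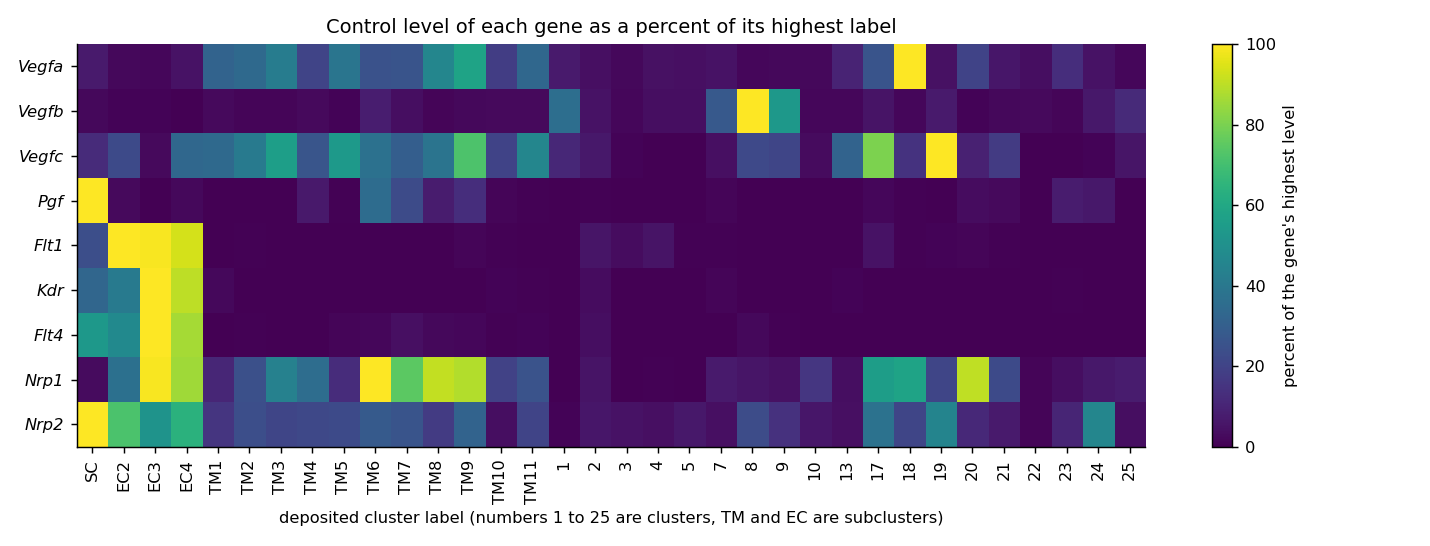
Mean control level of each gene (rows) in each deposited label (columns), as a percent of that gene's own highest label. LEC is left out because the controls held 4 of its cells. *Flt1*, *Kdr* and *Flt4* are bright in SC and EC2 to EC4 alone, *Pgf* in SC, *Vegfb* in clusters 8 and 9, *Vegfa* in cluster 18.

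The ligands, apart from *Pgf*, led in different labels from the receptor kinases, which does not mean that they never shared a cell. In SC, *Flt1* and *Pgf* were detected together in 26 of 46, 36 of 63 and 6 of 15 cells. The share was lower in EC2, EC3 and EC4 in each library. Leading labels here are those of the controls. *Flt1*, *Kdr* and *Flt4* led in EC2 to EC4 and SC. *Vegfa* led in a cluster to which the study's text gives no cell type, followed by stroma. *Vegfb* led in pigment cells and *Vegfc* in smooth muscle and stroma. *Pgf* alone among the ligands led in an endothelial label, SC. The labels were built on the same counts, so these orders are a description and carry no test. Levels below are means over cells of UMIs per 10,000 UMIs of the cell, and they are compared between cells for 1 gene, not between genes.

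*Vegfa*, the main angiogenic ligand, was highest in cluster 18, at 11.9, 10.9 and 10.7 UMIs per 10,000. The study's text gives this cluster no cell type. Cluster 18 was followed by TM9 at 6.40, 6.77 and 6.07. The libraries overlapped closely in both labels, and in the controls the gap between them was wider than the spread of either. TM8 (4.28, 6.17 and 4.75), TM3 (4.78, 4.74 and 4.78) and TM5 (4.05, 4.81 and 4.99) came next and could not be ordered against one another, since the control ranges overlapped. *Vegfa* was spread widely: 16 of the 34 ranked labels had a control mean of at least 1 UMI per 10,000, and cluster 18 held 10.5% of its control UMIs. In the endothelium itself the level was low, at 0.907, 0.697 and 0.469 in SC and at 0.182, 0.209 and 0.246 in EC3. The genes whose levels followed *Vegfa* most closely over the 35 labels were *Pdgfra* (a receptor of fibroblasts, Pearson r = 0.90), *Lum* (a collagen-binding proteoglycan, r = 0.90) and *Lsamp* (a cell adhesion molecule, r = 0.89), and these correlations, like those below, are over labels that share libraries.

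*Vegfb*, a ligand of FLT1 alone among the receptor kinases, had the most restricted pattern of the 4. Cluster 8, assigned to melanocytes by the study, stood at 6.76, 5.38 and 4.92 UMIs per 10,000 and held 60.4% of the control UMIs. Cluster 9, also given as melanocytes, followed at 3.396, 3.0996 and 3.56. Cluster 1 (retinal pigment epithelium, RPE) had 2.19, 2.21 and 1.37, and cluster 7 (ciliary epithelium) 1.86, 1.54 and 1.85. These 4 pigment-lineage clusters were the only labels with a control mean of at least 1, although the mice are albino. The closest genes over labels were *Cox4i1* and *Ndufb10*, subunits of the mitochondrial respiratory chain (r = 0.86 and 0.84), and *Oca2*, a melanosome protein (r = 0.84). Without LEC they were *Tyr* (r = 0.902), the enzyme that starts melanin synthesis, *Acot13* and *Oca2* (r = 0.899 each).

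*Vegfc*, the lymphangiogenic ligand, was low throughout, with no label at a control mean of 1. The smooth muscle cluster 19 (0.891, 0.975 and 0.668) and the stromal cluster 17 (0.772, 0.728 and 0.803) led, followed by TM9 (0.587, 0.759 and 0.461). In EC4 it was at 0.295, 0.327 and 0.0548. In SC the 15 *Angpt1*ΔNC cells held 9 UMIs (0.786 per 10,000) and the 46 and 63 control cells 4 and 11 (0.0551 and 0.178). *Pam* (a peptide-amidating enzyme, r = 0.85), *Scarf2* (r = 0.84) and *Tmem150a* (r = 0.83) were most like it, and these were also its closest 3 by rank correlation. *Vegfd*, the other ligand of FLT4, did not exceed 0.0676 in the control mean of any ranked label.

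*Pgf*, placental growth factor, a ligand of FLT1, was highest in SC, at 19.1 and 10.96 UMIs per 10,000 in the controls and 3.098 in *Angpt1*ΔNC. The stromal labels TM6 (5.21, 5.38 and 3.52), TM7 (3.41, 3.42 and 1.47) and TM9 (1.94, 1.99 and 0.706) came next. The mutant library was the lowest in all 4, and the control ranges of these labels did not overlap one another. SC held 19.03% of the control UMIs and TM7, a far larger group of cells, 36.1%. Blood vessel endothelium had less, with 0.504, 0.260 and 0.551 in EC2 and 0.243, 0.346 and 0.0851 in EC4, on 22 and 43 control UMIs, and EC3 gave 0, 1 and 1 UMI from 118, 118 and 58 cells, and 0 UMIs in control replicate 1 allow up to 0.0273 per 10,000. *Prox1*, the master factor of lymphatic identity, was the gene most like *Pgf* (r = 0.72, and 0.735 without LEC), before *Nsg1* (r = 0.69) and the guidance cue *Ntn1* (r = 0.65).

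**Figure D2:**
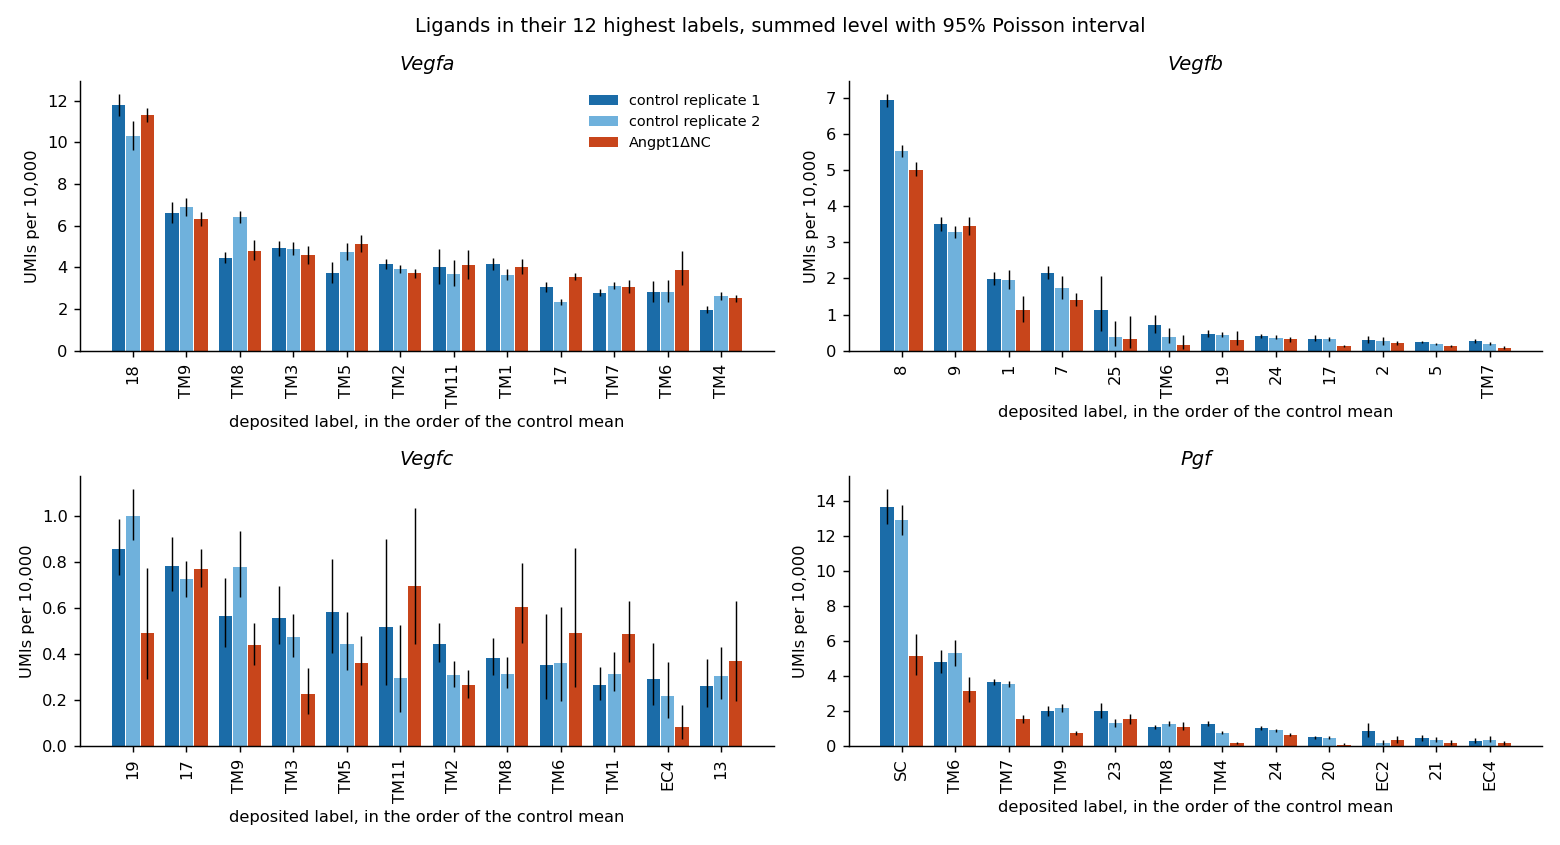
Summed UMIs per 10,000 summed UMIs (y axis) of each ligand in the 12 labels with the highest control mean (x axis), 1 bar for each library, with exact 95% Poisson intervals that cover counting error only. *Vegfa* in cluster 18 is highest in all 3 libraries, and *Pgf* in SC stands at 13.7 and 12.9 in the controls and at 5.11 in *Angpt1*ΔNC.

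Among the receptors, *Flt1* was highest in EC2 (15.5, 14.7 and 20.2 UMIs per 10,000), EC3 (12.9, 16.98 and 18.5) and EC4 (12.5, 15.8 and 16.7), whose control ranges overlapped. SC had 3.06, 4.16 and 6.92, below every blood vessel label in each library. Outside the endothelium, *Flt1* was found in the limbal stem cell cluster 2 (0.715, 0.952 and 0.357), in the limbal epithelial cluster 4 (0.538, 1.01 and 0.790) and in stromal cluster 17 (0.719, 0.733 and 0.724). In cluster 2 the endothelial markers stood at 0.197, 2.22 and 0.0666 summed UMIs per 10,000, and their part was not tested. Cluster 4 held 10.1% of the control UMIs of *Flt1*, while the 5 endothelial markers together stood at 0.0325, 0.0337 and 0.0528 in clusters 4 and 5. UMI counts do not separate membrane-bound from soluble *Flt1* transcripts. Most like it were the endothelial genes *Mmrn2* (r = 0.92), *Ces2e* (r = 0.91) and *Cyyr1* (r = 0.91).

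*Kdr* was found almost wholly in endothelium. EC3, the label that resembles choriocapillaris, had 7.76, 9.44 and 4.62 UMIs per 10,000. The arterial EC4 had 7.59, 7.88 and 8.52, the venous EC2 3.57, 3.46 and 3.65, and SC 2.81, 2.85 and 4.36. The controls overlapped between EC3 and EC4, whereas EC2 and SC were each set apart. These 4 labels held 52.6%, 26.0%, 5.14% and 9.71% of the control UMIs of *Kdr*, and the 989, 1012 and 911 cells of epithelial clusters 4 and 5 gave 2, 1 and 3 UMIs. *Flt1* and *Kdr* were detected together in 107 of 118 and 115 of 118 control EC3 cells and in 46 of 58 in *Angpt1*ΔNC. Its closest genes were *Podxl* (r = 0.98), *Rasip1* (r = 0.97) and *Cdh5* (VE-cadherin, r = 0.97), all of endothelial junctions or surface.

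*Flt4* followed *Kdr* closely over the labels (r = 0.93), although it is best known from lymphatics. EC3 had 1.35, 1.75 and 1.30 UMIs per 10,000, EC4 1.42, 1.26 and 1.30, SC 0.950, 0.699 and 0.237, and EC2 0.766, 0.703 and 0.922. SC was the only one of these in which the mutant library fell outside the control range by more than its Poisson interval, with 5 genes of the endothelial marker list at 58.3, 63.8 and 41.1 in the same cells. LEC was sampled by 3, 1 and 12 cells and stood at 3.76, 3.68 and 3.75, on 2, 5 and 55 UMIs. *Adgrg3*, *Sox18* and *Ushbp1* (r = 0.98, 0.97 and 0.97) were most like it over all labels, and *Shank3*, *Mmrn2* and *Robo4* (r = 0.988, 0.982 and 0.977) without LEC.

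The neuropilins divided the endothelium. *Nrp2*, the co-receptor tied to VEGFC, was highest in SC (7.08, 6.15 and 7.18 UMIs per 10,000), then in EC2 (5.05, 4.45 and 5.33), EC4 (4.39, 4.04 and 4.85) and EC3 (3.14, 3.67 and 4.63), and the control ranges of these labels did not overlap. *Nrp1*, the co-receptor tied to VEGFA and KDR, stood in SC at 0.00799, 0.170 and 0.357, on 1, 7 and 5 UMIs, and in EC3 at 3.09, 2.84 and 1.66. SC was thus the highest label for 1 neuropilin and rank 29 of 34 for the other. Outside vessels, *Nrp1* was found in TM6 (3.49, 2.49 and 1.32), TM8 (2.85, 2.59 and 1.89) and the pericyte cluster 20 (2.99, 2.42 and 1.19), and *Nrp2* in the monocyte cluster 24 (2.85, 3.20 and 2.92) and in smooth muscle cluster 19 (2.95, 3.05 and 2.93). *Nrp1* was followed most closely by *Spry4*, *Bambi* and *Spry1* (r = 0.90, 0.87 and 0.86), of which the Sprouty genes encode feedback inhibitors of receptor tyrosine kinase signalling. *Nrp2* was followed by *Cltc*, *Zmiz1* and *Mef2a* (r = 0.82, 0.78 and 0.78).

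**Figure D3:**
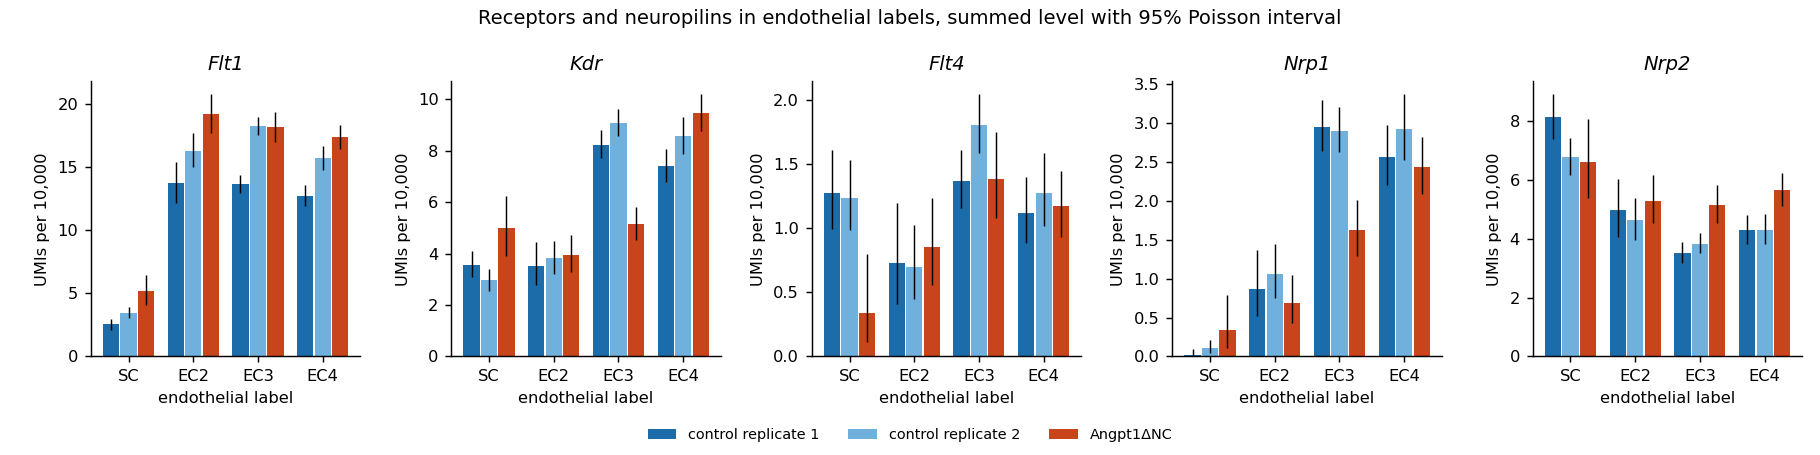
Summed UMIs per 10,000 summed UMIs (y axis) of receptors and neuropilins in the 4 endothelial labels (x axis), 1 bar for each library, with exact 95% Poisson intervals that cover counting error only. *Flt1* and *Kdr* are lower in SC than in EC3 in the controls, *Nrp1* is near 0 in SC and *Nrp2* highest there, and *Kdr* in EC3 is lower in *Angpt1*ΔNC.

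The comparison of genotypes asks which members change when *Angpt1* is lost from neural crest derived cells. Counts were summed over the cells of 5 classes in each library and tested over all genes with edgeR's quasi-likelihood method, with Benjamini-Hochberg adjustment and a threshold of 0.05. The lone *Angpt1*ΔNC library is taken to vary like the controls. SC and LEC were too scarce to form a class. Values in this part are summed UMIs per 10,000 summed UMIs. The log2 fold changes also carry edgeR's TMM factors, which the printed levels do not. A small fold change can thus differ in sign from the printed levels, as for *Kdr* in blood endothelium. In that class the fold changes of the members lay above the ratios of their printed levels.

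In TM stroma, *Pgf*, *Nrp1* and *Vegfb* fell and *Flt1* rose. *Pgf* was at 1.35 and 1.23 in the controls and 0.393 in *Angpt1*ΔNC, a log2 fold change of -1.71 ± 0.16 (SE; edgeR adjusted p = 0.000577). *Nrp1* was at 1.52, 1.41 and 0.888, a change of -0.72 ± 0.15 (edgeR adjusted p = 0.0218). In both the mutant library lay well below either control. The 5 pericyte markers, of which at most 1 was at 0 in a library, stood at 5.82, 4.67 and 1.84 in the same cells, beside high *Nrp1* in pericyte cluster 20, and their part in both results was not tested. *Vegfb* (0.171, 0.125 and 0.0789) changed by -0.89 ± 0.22 (edgeR adjusted p = 0.0409). The 6 marker genes of RPE, a cell type rich in *Vegfb*, stood at 0.354, 0.328 and 0.132 in these cells and the 4 of melanocytes at 0.796, 0.932 and 0.820, and their part in the result was not tested. *Flt1* (0.0492, 0.0416 and 0.0892) changed by 0.98 ± 0.22 (edgeR adjusted p = 0.0299), in cells where the endothelial markers were at 0.159, 0.178 and 0.445, a part that was not tested either. In male-typed cells alone the change of *Flt1* was 0.43 (adjusted p = 0.487), and that of *Vegfb* was -0.78 (adjusted p = 0.0595). DESeq2 kept the calls of *Pgf* and *Nrp1* and not those of *Vegfb* and *Flt1* (adjusted p = 0.211 and 0.328). Of the 9 members tested, 1 was thus called higher and 3 lower, against 3.46% and 5.52% of all 13942 genes. The median of the 9 was 0.057, beside -0.0080 over all genes.

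The makeup of TM stroma also differed: TM7, the label with the most *Pgf* UMIs, held 667, 739 and 174 cells, and TM8 591, 612 and 155. With each label given equal weight, the change of *Pgf* was -0.88 (adjusted p = 1.46e-05) and that of *Nrp1* -0.55 (adjusted p = 0.0133). Both kept their calls, and the value of *Pgf* compares with -1.71 on the unweighted sums. In TM4, *Pgf* had 1.25, 0.792 and 0.166 UMIs per 10,000 as a mean over cells, the widest ratio among the stromal labels named here. In the same TM4 cells the pericyte markers stood at 9.99, 6.97 and 1.72 and the smooth muscle markers at 15.3, 14.6 and 8.16, and their part was not tested.

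In mural cells, *Pgf*, *Vegfc* and *Vegfb* fell and *Flt1* rose. *Flt1* was at 0.163, 0.142 and 0.370, a log2 fold change of 1.48 ± 0.24 (edgeR adjusted p = 0.000425), with the endothelial markers at 0.178, 0.238 and 0.239. *Vegfc* (0.453, 0.565 and 0.161) changed by -1.47 ± 0.27 (edgeR adjusted p = 0.00114) and *Pgf* (0.268, 0.213 and 0.0717) by -1.54 ± 0.36 (edgeR adjusted p = 0.00727). *Vegfb* (0.256, 0.272 and 0.113) changed by -1.02 ± 0.30 (edgeR adjusted p = 0.0261), with the RPE markers at 0.687, 0.456 and 0.269. RPE cluster 1 held 4.18% of the control UMIs of *Vegfb*, and the melanocyte clusters 8 and 9 held 60.4% and 16.8%. Smooth muscle cluster 19, the leading label of *Vegfc*, held 387, 499 and 54 cells, the 4 smooth muscle markers stood in sum at 191, 184 and 100, and the 5 pericyte markers at 48.1, 49.1 and 71.6. Their part in the results was not tested. With equal label weights *Vegfc* changed by -0.75 (adjusted p = 0.0488), *Vegfb* by -0.43 (adjusted p = 0.407), and *Vegfa* and *Nrp1* joined the calls at -0.90 (adjusted p = 0.00105) and -0.64 (adjusted p = 0.0247). DESeq2 kept the call of *Vegfc* alone (adjusted p = 0.0285, with 0.0514 for *Flt1*, 0.157 for *Pgf* and 0.366 for *Vegfb*), and in male-typed cells *Pgf* had -1.13 (adjusted p = 0.181). In pericyte cluster 20 alone, *Pgf* had 98, 104 and 7 UMIs from 461, 512 and 222 cells, and *Flt1* had levels of 0.219, 0.210 and 0.453. Of 7 members tested, 1 was called higher and 3 lower, against 9.12% and 7.23% of 11606 genes, and *Kdr* and *Flt4* did not pass the filter on low counts. The median of the 7 was -0.50, beside -0.048 over all genes.

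In blood endothelium, *Nrp2* rose. It was at 3.92, 4.08 and 5.41, a log2 fold change of 0.61 ± 0.15 (edgeR adjusted p = 0.0240; DESeq2 adjusted p = 0.0921), with the mutant library above both controls in EC2, EC3 and EC4. The makeup of the class differed too: EC2 held 32, 38 and 37 cells, EC3 118, 118 and 58, and EC4 96, 107 and 87. The main receptors did not pass the test: *Flt1* (13.4, 17.3 and 18.04) had a log2 value of 0.41 ± 0.17 (edgeR adjusted p = 0.163) and *Kdr* (7.46, 8.15 and 6.93) one of 0.0083 ± 0.15 (edgeR adjusted p = 0.983). The *Kdr* sum joined unlike labels, since in EC3 the mutant library had 5.14 against 8.23 and 9.08. *Nrp1* (2.60, 2.63 and 1.81) had -0.35 ± 0.16 (edgeR adjusted p = 0.229) and *Flt4* (1.21, 1.49 and 1.17) -0.033 ± 0.19 (edgeR adjusted p = 0.938). Of the 9 members tested 1 was called higher and none lower, against 6.39% and 3.17% of 9280 genes. At an unadjusted p under 0.05 the counts were 3 higher and none lower. The share of all genes under that threshold was not counted, so no excess can be read from these counts. DESeq2 called none of the 6 members for which it gave an adjusted p in this class.

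In limbal and corneal epithelium and in ciliary epithelium no member passed the edgeR test, among 6 and 7 tested. Of all genes there, 2.81% and 2.91% were called higher and lower in the former and 0.246% and 0.543% in the latter. At an unadjusted p under 0.05, *Nrp2* (0.366, 0.314 and 0.416) was higher and *Vegfb* (0.235, 0.181 and 0.114) lower in epithelium, and *Nrp2* (0.391, 0.310 and 0.637) higher in ciliary epithelium. The share of all genes under that threshold was not counted. The makeup of the epithelial class differed: cluster 4 held 414, 507 and 641 cells and cluster 5 575, 505 and 270. Equal label weights were not run there, and the part of this makeup in any value of the class was not tested. The 6 RPE markers stood at 0.296, 0.149 and 0.0337 in the same epithelial cells, and their part in the *Vegfb* value was not tested. Melanocyte clusters 8 and 9, and not RPE cluster 1, held most control UMIs of *Vegfb*. DESeq2 called none of the members for which it gave an adjusted p in either class.

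**Figure D4:**
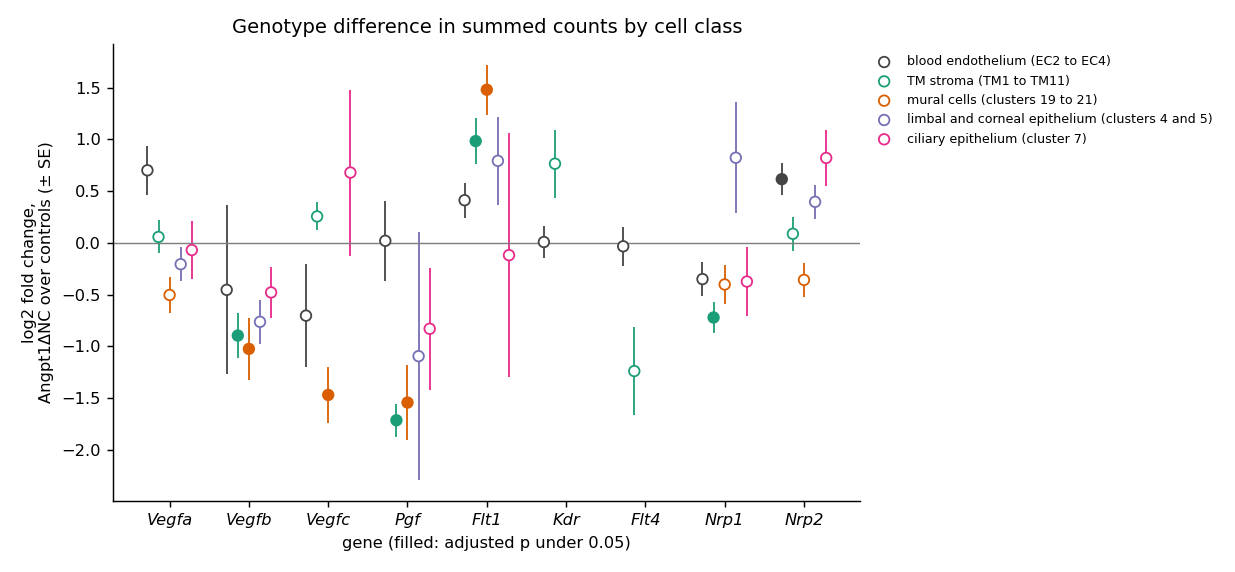
Log2 fold change of each member, *Angpt1*ΔNC over controls (y axis, with SE), by cell class (colour), from edgeR on summed counts. Filled points have an adjusted p under 0.05: *Pgf*, *Nrp1* and *Vegfb* lie below 0 and *Flt1* above in TM stroma, *Pgf*, *Vegfc* and *Vegfb* below and *Flt1* above in mural cells, and *Nrp2* above in blood endothelium.

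Label by label, *Pgf* and *Nrp1* were lower in the most places. A label was counted where the controls together held at least 30 UMIs of the gene and the exact 95% Poisson interval of *Angpt1*ΔNC lay entirely below, or above, those of both controls, a count that covers counting error and not the spread between mice. Over all 225286 pairs of a gene and a label, 7.32% lay below and 5.33% above. *Pgf* lay below in 8 of its 16 labels (SC, TM4, TM6, TM7, TM9, 17, 20 and 24) and above in none. *Nrp1* lay below in 8 of 24 (EC3, TM3, TM4, TM6, TM8, TM9, TM10 and 20) and above in none. *Vegfb* lay below in 5 of 21 (TM7, 1, 4, 8 and 17). *Nrp2* lay below in 1 of 31 and above in 6 (EC3, EC4, TM8, 5, 7 and 9), *Flt1* below in 1 of 13 and above in 4 (SC, EC2, 5 and 20), and *Vegfa*, with 32 labels, below in 2 and above in 2. *Vegfc* lay below in 1 of 19 and above in 2. *Kdr* and *Flt4* each lay below in 1 label, EC3 of 5 and SC of 6.

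In SC, where no test was made, *Pgf* gave 753, 877 and 75 UMIs from 46, 63 and 15 cells, or 13.7 (95% Poisson interval 12.7 to 14.7), 12.9 (12.1 to 13.8) and 5.11 (4.02 to 6.41) summed UMIs per 10,000. The ratio depends on the weight of deep cells, since the means over cells were 19.1, 10.96 and 3.098. *Prox1*, *Ccl21a* and *Nupr1*, which the study names together with *Pgf* among its markers of SC, stood at 138, 119 and 45.6 in sum in the same cells. As means over cells, *Flt1* (3.06, 4.16 and 6.92) and *Kdr* (2.81, 2.85 and 4.36) were higher in the 15 mutant SC cells than in either control. The Poisson interval of the sum lay above those of both controls for *Flt1* and not for *Kdr*. *Nrp2* lay within the control range as a sum.

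Other genes of the pathway were followed through 7 lists of 62 genes. Of the co-receptor ligands, *Sema3a*, a repellent guidance cue that binds NRP1, was highest in SC, at 1.89, 1.30 and 0.156 mean UMIs per 10,000. *Sema3c* led in TM1 (3.47, 3.67 and 4.00), *Sema3b* in cluster 10 (2.56, 2.76 and 2.72) and *Sema3f*, a ligand of NRP2, in EC3 (1.57, 2.18 and 1.21). *Sema3d* fell in TM stroma (0.263, 0.277 and 0.0975 summed UMIs per 10,000; log2 fold change -1.47 ± 0.18, edgeR adjusted p = 0.00190), in mural cells (0.247, 0.264 and 0.0418; -2.41 ± 0.39, edgeR adjusted p = 0.000395) and in blood endothelium (0.150, 0.0715 and 0; edgeR adjusted p = 0.0171), where 0 UMIs allow up to 0.0194. Of 7 semaphorins tested in TM stroma, *Sema3b* and *Sema3g* rose as well, *Sema3g* from a very low level (0.00109, 0.0035 and 0.0263). Of 4 in blood endothelium and 4 in mural cells no other was called. In limbal and corneal epithelium *Sema3c* rose (0.178, 0.205 and 0.413; log2 fold change 1.21 ± 0.18, edgeR adjusted p = 0.0104), alone of 6 tested, and none of 4 was called in ciliary epithelium. Of the plexins, the signalling partners of neuropilins, *Plxna2* (1.60, 2.73 and 1.93) and *Plxnd1* (1.51, 1.53 and 1.73) led in SC as means over cells. Both rose in blood endothelium, the only 2 of the 4 tested there, *Plxnd1* from 1.05 and 1.02 to 1.73 (edgeR adjusted p = 0.00381). None of the plexins was called in TM stroma or mural cells. Of all genes, 6.39% were called higher and 3.17% lower in blood endothelium, and 3.46% and 5.52% in TM stroma. The shares were 9.12% and 7.23% in mural cells, 2.81% and 2.91% in limbal and corneal epithelium and 0.246% and 0.543% in ciliary epithelium. *Adamts3*, *Ccbe1* and *Adamts14*, which process VEGFC, did not exceed a control mean of 0.194 in any ranked label.

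Downstream of the receptors, *Ptprb*, the endothelial phosphatase that restrains KDR and TEK, led in EC2 (8.71, 7.80 and 4.39 mean UMIs per 10,000). Of the signalling list, 1 of 13 genes tested rose in blood endothelium (*Nck1*) and 1 of 15 in TM stroma (*Src*), and in mural cells 2 rose (*Gab1* and *Ptk2*) and 3 fell (*Mapk3*, *Shb* and *Akt1*) of 13. Of all genes, 6.39% were called higher in blood endothelium and 3.46% in TM stroma, and 9.12% higher and 7.23% lower in mural cells, so that 1 gene of 13 or 15 is near the background. Of 11 VEGF-induced endothelial genes tested in blood endothelium, *Apln*, a peptide of sprouting tip cells, fell from 0.582 and 0.454 to 0.0388 summed UMIs per 10,000 (log2 fold change -3.53 ± 0.42, edgeR adjusted p = 0.000276). *Egr3*, an immediate early factor, rose from 0.120 and 0.139 to 0.550 (edgeR adjusted p = 0.000230), and the other 9 were not called. The median of the 11 was 0.25, beside -0.025 over all genes, of which 6.39% were called higher and 3.17% lower there. *Esm1*, another tip cell gene, stood at 6.26, 5.24 and 6.45 mean UMIs per 10,000 in EC4. In epithelium, where 7 of the list were tested, *Egr3* rose (0.0757, 0.0961 and 0.1996; log2 fold change 1.32 ± 0.23, edgeR adjusted p = 0.0183) and *Adm* fell (8.81, 8.04 and 3.16; edgeR adjusted p = 0.00746). *Adm* also fell in ciliary epithelium (0.450, 0.550 and 0.0980; edgeR adjusted p = 0.0395), alone of 6 tested. Of all genes, 2.81% and 2.91% were called higher and lower in epithelium, and 0.246% and 0.543% in ciliary epithelium.

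The HIF pathway and its targets were followed because hypoxia induces *Vegfa*. In blood endothelium 1 of 8 HIF pathway genes (*Hif1a*) and 3 of 9 hypoxia targets rose and none fell, beside 6.39% of all genes called higher and 3.17% lower. *Slc2a1*, the glucose transporter, went from 2.00 and 2.62 to 5.24 (log2 fold change 1.36 ± 0.18, edgeR adjusted p = 0.000559), and *Pfkfb3* and *Ndrg1* rose by 0.69 and 0.60 on the log2 scale (edgeR adjusted p = 0.0227 and 0.0370). *Vegfa* in the same cells had 0.311, 0.328 and 0.459 (log2 fold change 0.70 ± 0.24, edgeR adjusted p = 0.0893). In TM stroma 2 of 10 targets rose (*Ndrg1* and *Slc2a1*) and, of 8 HIF pathway genes, *Egln3* fell (3.46% and 5.52% of all genes), while *Vegfa* was at 3.62, 4.07 and 4.00 (0.057 ± 0.16, edgeR adjusted p = 0.861). In mural cells *Epas1*, the HIF subunit that led in pericyte cluster 20, rose from 3.39 and 3.01 to 5.43 (edgeR adjusted p = 0.000123) and *Vhl* rose, 2 of 8 tested. Within cluster 20, *Epas1* was at 6.37, 5.81 and 6.71 mean UMIs per 10,000. This cluster made up 461 of 1036, 512 of 1185 and 222 of 345 mural cells, with the pericyte markers of the class at 48.1, 49.1 and 71.6, and their part in the rise was not tested. Of 9 targets there, *Ddit4* rose, and *Bnip3* and *Pfkfb3* fell, beside 9.12% and 7.23% of all genes. In epithelium *Ndrg1* alone rose of 9 targets, beside 2.81% of all genes, and in ciliary epithelium none of the HIF genes or targets was called.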

How the data were processed

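Droplet single-cell libraries of the iridocorneal angle and limbus were made from 2 control pools and 1 *Angpt1*ΔNC pool. The authors deposited raw UMI counts per gene and cell (10x Genomics Cell Ranger, mm10; version 2.1.1 in the submitters' notes, 3.0.2 in the file headers), which are whole numbers throughout when checked. The authors removed cells with under 200 genes, under 1000 UMIs or over 10% mitochondrial reads, and doublets, and integrated the libraries in Seurat 3.1.3. Their deposited cluster labels were used as given, while their integrated values were not used. Kept cells held 76981606, 80346829 and 66484181 UMIs per library.

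A level is the mean, over the cells of a label, of UMIs per 10,000 UMIs of the cell, summed levels have exact 95% Poisson intervals, and limits for 0 allow 3 UMIs. Counts summed per class and library were tested in edgeR 4.0.16 (R 4.3.3; TMM, filterByExpr, quasi-likelihood F-test), with DESeq2 1.42.0 as an alternative, and the edgeR fit was tested on simulated data. Other alternatives were RLE size factors, no filter, male-typed cells (a Y-linked UMI and no *Xist* UMI) and leaving out a control. Equal label weights were run for blood endothelium, TM stroma and mural cells. Motifs were searched on both strands of RefSeq promoter windows. Scripts ran in Python 3.11.15.

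The members and lists were chosen with earlier results of these data known. The text names the 9 members, the 3 genes with the highest Pearson correlation with each over labels (log2 of the control mean plus 0.1, among 7798 genes with at least 0.5 UMIs per 10,000 in a label), and from each list up to 4 genes by control level and up to 3 called genes per class. Genes named beyond these were chosen after their values were seen.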

Additional observations from a re-analysis of the deposited data

Results flagged for a closer look

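Of the members, 4 had labels on both sides, with the exact 95% Poisson interval of *Angpt1*ΔNC below those of both controls in some cells and above them in others. For each, the label furthest from the controls on either side is given as the log2 ratio of the mean level, *Angpt1*ΔNC over the control mean. The difference between labels was not tested, and each ratio rests on 1 mutant pool.

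*Vegfa* had a log2 ratio of -1.06 in pericyte cluster 20 (2.23, 2.32 and 1.09 UMIs per 10,000) and of 0.59 in stromal label TM10 (2.24, 1.88 and 3.105). *Vegfc* had -1.25 in TM3 (0.564, 0.480 and 0.220) and 1.95 in TM10 (0.226, 0.149 and 0.723, on 28, 17 and 122 UMIs). Each of these ligands had 2 labels above both control intervals, of which TM10 was the further. *Vegfc* in SC (0.0551, 0.178 and 0.786) had too few control UMIs to be counted, and *Vegfa* in cluster 22 (0.401, 0.445 and 0.791) did not have its interval above both. *Flt1* had -1.22 in limbal stem cell cluster 2 (0.715, 0.952 and 0.357) and 1.37 in corneal epithelial cluster 5 (0.0339, 0.122 and 0.203), where the controls themselves lay further apart than the nearer control and the mutant. In cluster 2 the endothelial markers stood at 0.197, 2.22 and 0.0666 summed UMIs per 10,000, and their part was not tested. *Nrp2* had -0.61 in stromal cluster 17 (2.37, 2.59 and 1.63) and 0.86 in ciliary cluster 7 (0.307, 0.238 and 0.495).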

How the results depend on the processing

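The 9 called differences, each of 1 gene in 1 class and together from 6 of the members, kept their direction under every alternative run, and 35 of the 45 alternative values that came with a test kept their side of the threshold. The 10 that did not came from DESeq2, male-typed cells or equal label weights and stand in the report; the cause was not tested. *Pgf* in TM stroma was called in all 5 tested alternatives, between -0.88 and -1.72. Leaving out a control gave a fold change and no test. Of the differences not called, 12 alternative values passed the threshold: *Vegfa* and *Flt1* in blood endothelium with RLE size factors, *Kdr* in TM stroma with no filter and with equal weights, *Flt4* there with no filter and in male-typed cells, *Vegfa* in mural cells with no filter and with equal weights, *Nrp1* there with equal weights, *Nrp2* there in male-typed cells, and *Vegfb* and *Flt1* in epithelium with no filter. Another 13 turned their sign: *Pgf* in blood endothelium (-0.39 in male-typed cells, -0.61 with equal weights, 0.32 to -0.25 without a control), *Kdr* there (-0.012 with no filter, -0.067 to 0.089 without a control), *Flt4* there (0.11 with equal weights, -0.18 to 0.14 without a control), *Vegfa* in TM stroma (-0.059 to 0.19 without a control), *Nrp2* in TM stroma (-0.026 in male-typed cells, -0.034 to 0.23 without a control), *Nrp2* in mural cells (0.052 with equal weights) and *Vegfa* in ciliary epithelium (0.069 in male-typed cells, -0.25 to 0.0397 without a control).

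The count of genes called in blood endothelium went from 887 to 1344 with RLE size factors and 267 with DESeq2. That of TM stroma went from 1251 to 2441 with no filter and 637 with DESeq2, and that of mural cells from 1898 to 536 with DESeq2 and 1193 with equal weights. Epithelium went from 706 to 1814 with no filter, 439 with DESeq2 and 465 in male-typed cells, which are fewer cells, and ciliary epithelium from 77 to 626 with no filter and 21 in male-typed cells. Of 36 alternative values of the level in the leading label, 2 moved by more than the control SD: *Flt1* in EC2 to 14.1 in cells of at least 3000 UMIs and *Nrp2* in SC to 7.43 as a sum. Shares of cells with a UMI fell in all 9 leading labels after thinning to 2000 UMIs. By Spearman correlation 0 to 3 of the 3 genes most like a member were the same, and all 3 for *Vegfc* alone. The alternative without LEC was chosen after seeing the data. No paired analysis was possible because the groups share fewer than 2 replicate numbers. Depth limits *Flt4* and *Vegfc*, with 388 and 547 and with 1447 and 1818 UMIs in the control libraries.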
